A study of Mus musculus with 34 samples.

Results

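The results concern 10 genes of the brain's blood vessels and of the blood-brain barrier, Cldn5, Cdh5, Pecam1, Kdr, Tek, Slc2a1, Mfsd2a, Abcb1a, Pdgfrb and Rgs5. They were chosen by name, and every array probe whose RefSeq accession belongs to one of them was taken. This gave 11 probes of the 55681 on the array, 2 for Kdr and 1 for each of the others, and 10 genes of the 20145 that have a probe with a symbol. All 11 probes were well above background in all 34 fractions. Whole brains from C57BL/6J males at the age of 3 days were cut along a body axis, and each fraction was measured on 1 single-colour Agilent array, with 15 coronal fractions of mouse 1, 8 horizontal fractions of mouse 2 and 11 sagittal fractions of mouse 3. No animal was treated, none carried an altered allele, and the comparisons are between positions within a brain. Sagittal fractions 1 and 11 each pool 2 cut fractions, and the labels give a width of 500 μm for every fraction.

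Capillaries of the brain are lined by endothelial cells that are sealed to each other by tight and adherens junctions. These cells carry transporters that let nutrients in and pump many other compounds out, and together these features make the blood-brain barrier. Pericytes sit on the outer wall of the capillary, under the same basement membrane, and are needed for the barrier to form during development. Vessels first cover the surface of the brain as a plexus in the meninges and then grow inward, a growth that is still going on in the first days after birth.

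Each value below is a log2 normalized signal, which is the log2 of a probe's background-subtracted signal less the log2 of the 75th percentile of its array. A value of a probe can be compared between fractions but not with the value of another probe. The log2 of the 75th percentile was low in several end fractions, at 8.28 and 8.07 in coronal fractions 1 and 15 and 8.34 in sagittal fraction 1. It was 9.18 in coronal fraction 9 and 9.13 in sagittal fraction 4, but 8.17 in the inner coronal fraction 12. What part this scaling has in high values at the ends was not tested beyond the other scalings given below. A fraction holds all cells of its slices, so that fewer cells of a type and less RNA per cell cannot be told apart. From which end the fractions are counted is not given in the labels. As landmarks, the hindbrain gene Hoxb5 was highest in coronal fraction 2, the thalamic gene Tcf7l2 in coronal fraction 8 and the cortical gene Emx1 in coronal fraction 15. In the sagittal series En2, a gene of the midbrain and cerebellum, was highest in fraction 6, which was taken as the middle although the labels do not say so. The thalamic gene Gbx2 was also highest there and Emx1 lowest. Tcf7l2 and Lhx9 of the thalamus were highest in fraction 5, and the hindbrain genes Hoxc4 in 7 and Hoxb5 and Hoxa5 in 9. Hoxb5 was detected in sagittal fractions 4 to 11 and not in 1 to 3. In mirror pairs around 6, the median log2 difference of fractions 7 to 11 less 5 to 1 was 3.45 over the 3 hindbrain genes. None of these 3 was detected in every fraction. The median was 0.762 over the 3 thalamic genes and -0.139 over 4 genes of the telencephalon, and En2 was at 0.826, with none called. Fractions at the same distance from 6 thus differed in these landmarks, and whether they otherwise hold matching tissue was not tested. Coronal fractions 1 to 8 shared slide 2, and the later ones slide 3 except fraction 12. Sagittal fractions 2 to 9 shared slide 4, with fraction 1 on slide 3. The horizontal fractions were on slide 1 except 3 and 4, which were on slide 5 with coronal fraction 12 and sagittal fractions 10 and 11. Each series is 1 mouse, so that a plane, its mouse and most of its slides cannot be told apart.

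The promoter sequences of 7 of the 10 genes were matched by symbol in a RefSeq table of build GRCm38.p6, and 3 of them are shown because Cldn5 has the steepest sagittal gradient of the 10 genes and because Tek and Abcb1a run together in all 3 series. Each sequence reads 5′ to 3′ on the strand of the gene, over 300 bases around the start of the gene, and capitals mark GGAA or its reverse complement TTCC, the core to which ETS factors of endothelial cells bind.
Cldn5 at chr16:18776597-18776896 (+): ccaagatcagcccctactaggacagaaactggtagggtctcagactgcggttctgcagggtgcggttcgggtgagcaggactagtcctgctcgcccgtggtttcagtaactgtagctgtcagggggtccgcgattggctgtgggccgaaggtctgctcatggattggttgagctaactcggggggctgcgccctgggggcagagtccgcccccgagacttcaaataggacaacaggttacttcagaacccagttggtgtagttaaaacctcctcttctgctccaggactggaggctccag
Tek at chr4:94739039-94739338 (+): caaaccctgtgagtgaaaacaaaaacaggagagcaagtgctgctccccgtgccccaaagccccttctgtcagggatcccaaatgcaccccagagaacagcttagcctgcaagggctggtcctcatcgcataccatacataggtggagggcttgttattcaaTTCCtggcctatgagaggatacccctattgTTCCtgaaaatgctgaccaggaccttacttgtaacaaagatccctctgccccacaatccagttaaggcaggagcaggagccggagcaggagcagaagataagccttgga
Abcb1a at chr5:8566841-8567140 (+): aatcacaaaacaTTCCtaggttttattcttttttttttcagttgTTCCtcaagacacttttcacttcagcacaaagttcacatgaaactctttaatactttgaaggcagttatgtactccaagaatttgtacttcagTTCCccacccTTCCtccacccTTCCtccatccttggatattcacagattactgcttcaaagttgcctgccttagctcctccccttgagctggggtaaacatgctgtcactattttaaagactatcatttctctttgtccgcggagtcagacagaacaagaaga
Searched on both strands, the window held the core 0 times for Cldn5, 2 times for Tek and 5 times for Abcb1a. Among all 32851 windows of the same length 96.0% held it, with a median of 3. The GATA letters AGATAA, which 11.2% of all windows held, were present once for Tek, and TGTTTAC, the letters of a forkhead site, which 3.65% held, were present once for Abcb1a. A match is a description of the letters and not a measured site.

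The 3 junction and adhesion genes were high at both ends of the sagittal series, and Cdh5 was so in the horizontal series as well. Cldn5 encodes claudin-5, the main tight junction protein of brain endothelium. Its log2 normalized signal in coronal fractions 1 to 15 was 4.86, 4.48, 4.24, 4.05, 4.26, 4.44, 4.42, 4.41, 4.23, 4.38, 4.66, 4.94, 5.31, 5.28 and 5.40. The first fraction and the last 4 were thus the highest, and fraction 4 was the lowest, 1.35 below fraction 15 on the log2 scale, a 2.56-fold difference. Its horizontal values were 5.28, 5.08, 4.30, 4.30, 4.17, 4.17, 4.20 and 4.57, so that fractions 1 and 2 stood above the others. The sagittal values were 5.13, 4.37, 4.40, 4.07, 4.08, 4.28, 4.08, 4.24, 4.45, 4.48 and 4.91, with both outermost fractions above every inner one.

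Cdh5 encodes VE-cadherin, the adherens junction protein of endothelial cells. Its coronal signal was 1.21, 0.81, 0.68, -0.02, -0.79, 0.50, 0.44, 0.15, 0.15, -0.03, -0.11, -0.01, 0.81, 1.38 and 1.30. Fractions 14, 15 and 1 were the 3 highest, and fraction 5 was the lowest and lay apart from its neighbours. The horizontal ends were again the highest, with 1.29 in fraction 1 and 1.20 in fraction 8 against 0.49 to 0.86 in the 6 inner fractions. The sagittal signal was 0.66 in fraction 1, 0.80 in fraction 11 and between -0.15 and 0.60 in the 9 inner fractions, so that both ends stood above every inner fraction. Pecam1 encodes CD31, an adhesion molecule between endothelial cells. It ranged over a narrower span than Cdh5, from -2.57 to -1.76 in the coronal series (median -2.37), from -2.23 to -1.80 in the horizontal series (median -1.98) and from -2.66 to -2.11 in the sagittal series (median -2.38). Coronal fraction 1 was the highest of the 34, and the sagittal ends, at -2.11 and -2.16, were above every inner sagittal fraction. Before scaling this was not so. The unscaled signal of Pecam1 was 91.8 in coronal fraction 1 and 129 in fraction 2, and 74.9 in sagittal fraction 1, 88.9 in fraction 11 and 112 in fraction 6. Its highest horizontal fraction was an inner one, fraction 7, just above fraction 1 at -1.81.

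Kdr and Tek encode receptors for VEGF and for the angiopoietins, and whether they followed each other depended on the Kdr probe. Kdr was read by 2 probes. The leading probe, A_55_P2094469, was chosen by the number of fractions in which it was detected and then by its median signal. It ran from 2.95 to 4.11 in the coronal series, highest in fraction 12, from 2.64 to 3.66 in the horizontal series, highest in fraction 1, and from 3.18 to 3.61 in the sagittal series, where its SD was 0.13. The other probe, A_51_P316553, ran from 1.44 to 2.42 in the coronal series, highest in fraction 14, and from 1.27 to 2.15 in the sagittal series, highest in fraction 11. The 2 probes correlated with an r of 0.268 over the 15 coronal, 0.698 over the 8 horizontal and 0.313 over the 11 sagittal fractions. In coronal fraction 12 the leading probe was at its highest and the other near its lowest, as the plot of the 2 Kdr probes shows. The r of Tek with the leading probe was -0.260, 0.570 and -0.063 in the coronal, horizontal and sagittal series, and with the other probe 0.712, 0.565 and 0.703. With the mean of 18 other endothelial genes the r of the leading probe was 0.626, 0.843 and 0.282 in the same order. That of the other probe was 0.788, 0.685 and 0.915, so that the leading probe followed these genes least in the sagittal series.

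**Figure D1:**
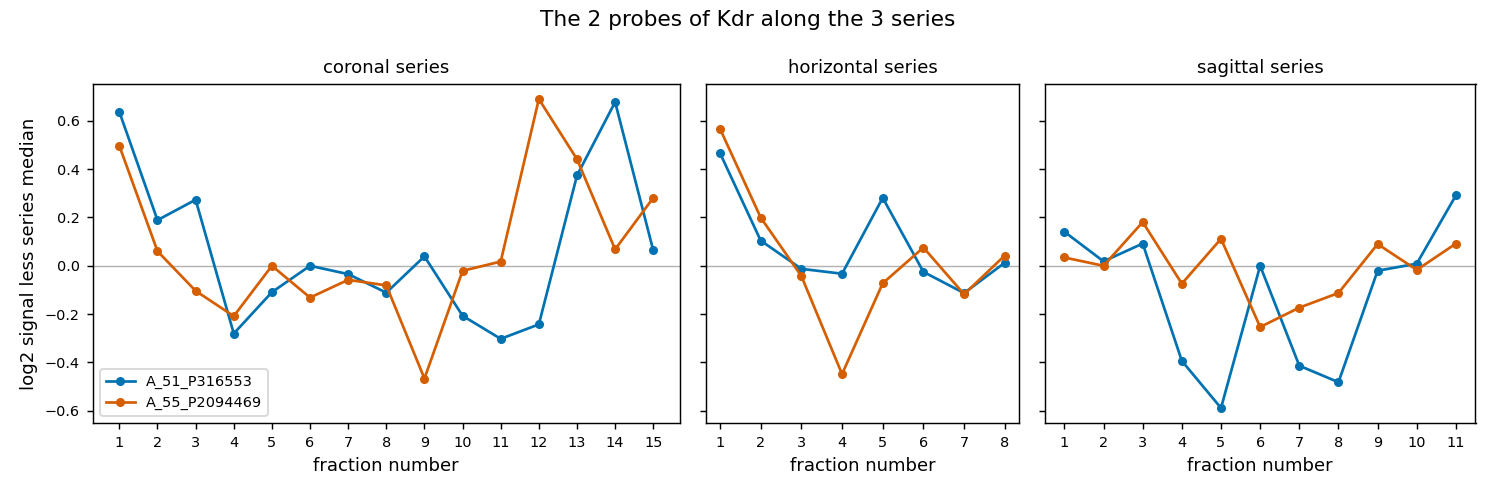
The log2 normalized signal of each Kdr probe less its own median in the series (y axis) against fraction number (x axis), for the 15 coronal, 8 horizontal and 11 sagittal fractions. The lines part most at coronal fractions 3, 9, 11, 12 and 14, at horizontal fractions 4 and 5 and at sagittal fractions 4 to 8, and r was highest in the horizontal series (0.698).

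Tek encodes the TIE2 receptor. It differed more between the 3 brains than along them, with a median of -2.46 in the coronal series (from -3.03 to -2.05), -1.67 in the horizontal series (from -2.05 to -1.15) and -2.89 in the sagittal series (from -3.04 to -2.26). The horizontal fractions lay above all sagittal ones, and above all coronal ones except that coronal fraction 1 and horizontal fraction 7 were both at -2.05. With 1 mouse for each plane this difference has no test, and mouse, plane and slide cannot be told apart. Along the sagittal series 3 fractions stood out, fraction 1 at -2.26, fraction 6 at -2.34 and fraction 11 at -2.33, while the other 8 were between -3.04 and -2.69.

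Of the 3 transporter genes, Slc2a1 and Mfsd2a varied little and Abcb1a varied with the junction genes. Slc2a1 encodes GLUT1, the glucose transporter of the barrier. Its SD over the 34 fractions was 0.17 and only 10.3% of the 34186 tested probes had a lower one. It ran from 2.46 to 2.96 in the coronal series (median 2.84), from 2.65 to 3.12 in the horizontal series (median 2.82) and from 2.46 to 2.77 in the sagittal series (median 2.58). The sagittal fraction with the highest Slc2a1 was fraction 6, in the middle, and not an outer one. Mfsd2a encodes the carrier of lysophospholipids that holds down transcytosis across brain endothelium. Its SD was 0.16, with 7.93% of tested probes lower, and its signal lay between 2.29 and 2.94 in the coronal series, 2.27 and 2.56 in the horizontal series and 2.40 and 2.84 in the sagittal series. Mfsd2a was lowest in coronal fraction 1, the end at which Cdh5 and Pecam1 were high, and highest in coronal fractions 12 and 13, both at 2.94.

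Abcb1a encodes P-glycoprotein, the efflux pump of the barrier. Its coronal signal was -0.08, -0.65, -0.76, -0.68, -0.54, -0.48, -0.60, -0.87, -0.72, -0.99, -0.995, -0.99, -0.59, -0.16 and -0.22. Fractions 1, 14 and 15 were the 3 highest. The horizontal ends, at 0.17 and -0.22, were above the inner fractions, which lay between -0.81 and -0.35, and in the sagittal series the ends were at -0.45 and -0.38 against -0.93 to -0.45 inside. Its paralog Abcb1b, which is not one of the 10 genes and is read by a probe of its own, had a coronal range from -3.38 to -1.86 and followed Abcb1a with an r of 0.796, 0.756 and 0.704 in the coronal, horizontal and sagittal series. Whether either probe also takes up RNA of the paralog was not tested.

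The 2 pericyte genes parted in the coronal series. Pdgfrb encodes the receptor by which endothelial PDGF-B recruits pericytes. It was highest in coronal fractions 14 (0.98), 1 (0.70), 15 (0.58) and 13 (0.57), while the other 11 coronal fractions were between -0.05 and 0.48. Its horizontal values lay between 0.18 and 0.61, and along the sagittal series it was 0.73 and 0.64 at the ends and between 0.01 and 0.61 inside. Rgs5, a regulator of G protein signalling that marks pericytes, ran from 0.63 to 1.49 in the coronal series, but its highest fraction there was the middle one, fraction 8, and its lowest was fraction 12. Its horizontal values were 1.95 in fraction 1, 1.67 in fraction 4 and between 0.86 and 1.45 in the others, and the sagittal values stayed between 0.96 and 1.35.

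**Figure D2:**
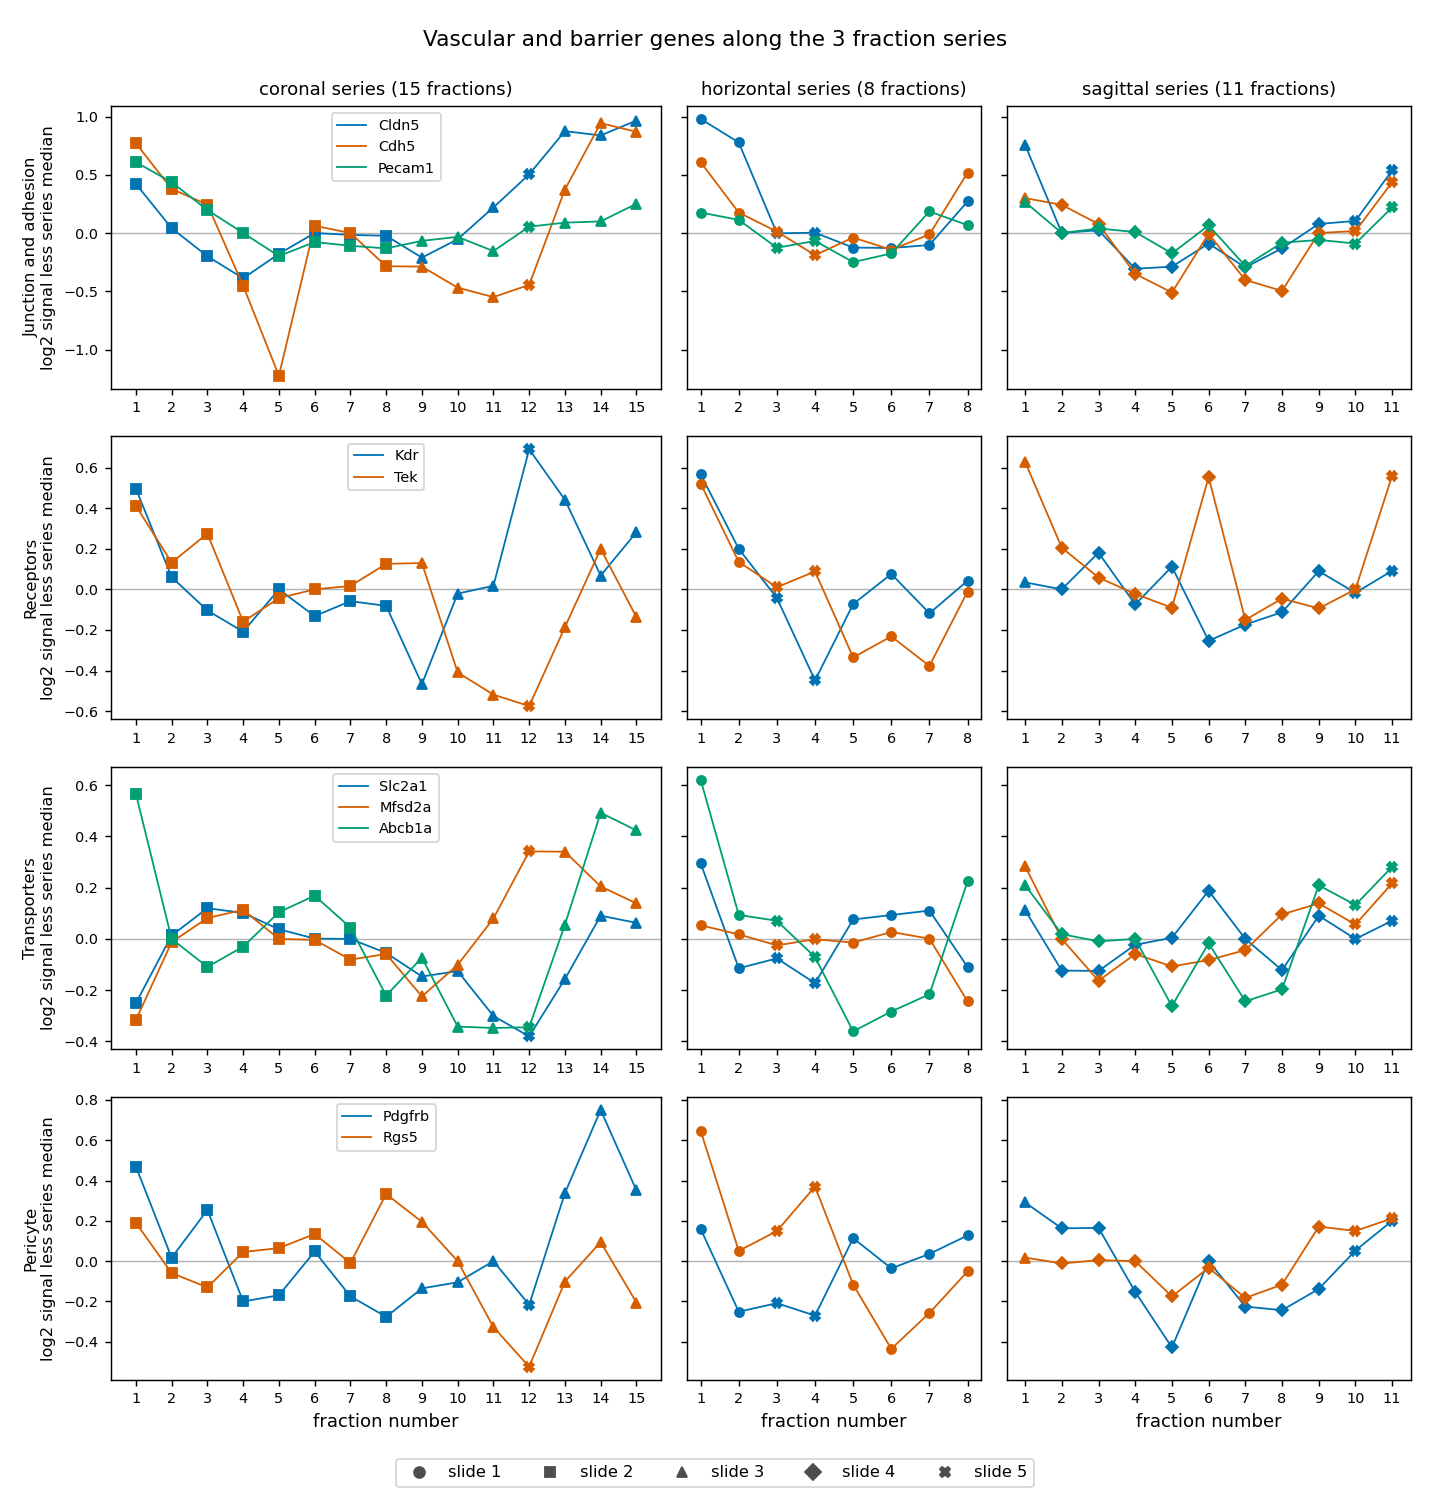
The log2 normalized signal of each of the 10 genes less its own median in the series (y axis) against fraction number (x axis), with 1 row of panels for each role and 1 column for each series. Marker shapes give the slide, Kdr is shown by its leading probe, and the y scale differs between rows. Cldn5, Cdh5, Abcb1a and Pdgfrb are high at the ends of the coronal and sagittal series, Slc2a1 and Mfsd2a are flat in comparison, and Mfsd2a and the leading Kdr probe are high in coronal fraction 12 where Tek, Slc2a1 and Rgs5 are low.

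Counted over the 10 genes, both outermost sagittal fractions were above the median of the inner fractions for 10 genes, and above every inner fraction for 7 genes, which were Cldn5, Cdh5, Pecam1, Tek, Mfsd2a, Abcb1a and Pdgfrb. Among all 34186 tested probes these 2 patterns were found in 44.2% and 20.1%. Of the 7, Abcb1a and Tek passed narrowly. Abcb1a was at -0.4539 in sagittal fraction 1 and at -0.4547 in inner fraction 9. Tek was at -2.332 in fraction 11 and at -2.339 in fraction 6. In the horizontal series fraction 1 was above every inner fraction for 9 of the 10 genes, all but Pecam1, and for 20.2% of all probes, while fraction 8 was above every inner one for Cdh5, Abcb1a and Pdgfrb and for 13.3% of all probes. Here too there were narrow passes. Mfsd2a was at 2.5625 in fraction 1 and at 2.5362 in fraction 6, and Pdgfrb at 0.5762 in fraction 8 and at 0.5628 in fraction 5. In the coronal series fraction 1 was above the inner median for 8 genes (49.8% of all probes) and fraction 15 for 8 genes (57.1%), but both ends were above every inner fraction for none of the 10 and for 4.52% of all probes. Coronal fraction 14, which counts as inner here, was above fraction 15 for Cdh5, Abcb1a and Pdgfrb among others.

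How the genes vary from end to end of the coronal series was tested with a straight line on the fraction number in limma, with Benjamini-Hochberg adjustment over 34186 probes, as in all tests below. Cldn5 rose by 0.0658 per fraction (SE 0.0191, n = 15 fractions of 1 mouse, limma adjusted p = 0.0185), and was the only one of the 10 genes called. Of all tested probes 28.3% were called and 18.9% were called as higher with the fraction number, so that 1 of 10 was below the background. Tek and Mfsd2a came next, at -0.0340 (SE 0.0150) and 0.0236 (SE 0.0104) per fraction, both with a limma adjusted p of 0.103. On slide 2 alone, which held fractions 1 to 8, the slope of Cldn5 was -0.0309 (SE 0.0350), and on slide 3 alone it was 0.213 (SE 0.0318), so that the rise was in the later fractions. With slide as a block the adjusted p of Cldn5 was 0.518, in a fit that called 251 of all probes.

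A line cannot follow a signal that is high at both ends, so 2 other shapes were fitted. With a natural spline of 3 degrees of freedom, Abcb1a, Cdh5, Cldn5, Pdgfrb, Pecam1 and Slc2a1 were called in the coronal series, which is 6 of 10 where 60.4% of all probes were called. With the distance from the middle of the series, chosen after the values had been seen, Pecam1 rose by 0.0821 per fraction outward (SE 0.0192, limma adjusted p = 0.00935), Pdgfrb by 0.101 (SE 0.0256, adjusted p = 0.0142) and Cdh5 by 0.180 (SE 0.0529, adjusted p = 0.0292). These were 3 of 10 genes, against 18.1% of all probes in either direction and 7.99% higher outward. The slopes of the other 7 were positive except that of Rgs5, at -0.0308 (SE 0.0264), and the median over the 10 was 0.0771 per fraction against 0.0037 over all probes. With slide as a block in addition, 6 of 10 were called, Abcb1a, Cdh5, Cldn5, Kdr, Pdgfrb and Pecam1, against 26.2% of all probes, and without fractions 1 and 15 none was, with 2360 probes still called and an adjusted p of 0.0741 for Pecam1. The median slope of the 10 was then 0.0599, and 9 of 10 slopes were above 0. The low value of Cdh5 in coronal fraction 5 did not decide its call, since without that fraction its slope was 0.168 (adjusted p = 0.0155).

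In the horizontal series none of the 10 genes was called along the axis, where 1.76% of all probes were called. At an unadjusted p under 0.05 stood Rgs5 (-0.103 per fraction, SE 0.0379, limma adjusted p = 0.22), Tek (-0.0885, SE 0.0331, adjusted p = 0.228) and Cldn5 (-0.117, SE 0.0498, adjusted p = 0.28). The spline called none of them, with 1.72% of all probes called, nor did the distance from the middle, with 0.152%. For Cldn5 the 95% interval of the horizontal slope reached from -0.232 to -0.00337 per fraction.

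The sagittal series runs from one side of the brain through its middle to the other side, so the question there is whether a gene changes with the distance from fraction 6. Cldn5 rose by 0.166 per fraction outward (SE 0.0371, n = 11 fractions of 1 mouse, limma adjusted p = 0.00787), which is 1.78-fold over 5 fractions. Cdh5 rose by 0.150 (SE 0.0403, adjusted p = 0.0183), Pdgfrb by 0.0999 (SE 0.0296, adjusted p = 0.0278) and Abcb1a by 0.0861 (SE 0.0245, adjusted p = 0.0233). Thus 4 of 10 genes were called, all higher outward, against 28.3% of all probes in either direction and 18.3% higher outward. The direction of these 4 was the same under the other scalings (the array's median and quantile normalization).

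Not called were Mfsd2a (0.0590 per fraction, SE 0.0216, limma adjusted p = 0.0637), Rgs5 (0.0546, SE 0.0209, 0.0739), Pecam1 (0.0585, SE 0.0255, 0.111), Kdr by its leading probe (0.0451, SE 0.0228, 0.165) and Tek (0.0676, SE 0.0504, 0.35). Slc2a1, at -0.0059 (SE 0.0220, adjusted p = 0.871), had the slope nearest 0, with a 95% interval from -0.0543 to 0.0426 per fraction. By its other probe Kdr rose by 0.121 (SE 0.0398, adjusted p = 0.0427), so that its call turned on the probe. For Tek, fraction 6 itself was among its 3 highest fractions. Over the 10 genes the median slope was 0.0633 per fraction, against 0.0142 over all probes, and the array's median as the scale raised these to 0.0972 and 0.0481, a shift of all probes alike with which the slope of Slc2a1 was above 0 as well.

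None of the 4 sagittal calls held without the outermost fractions or on slide 4 alone, where fewer of all probes were called as well. Without fractions 1 and 11 none of the 10 was called, and of all 34186 probes 3434 were, against 9666 with these fractions. The slope of Cldn5 was then 0.0820 (limma adjusted p = 0.146) and that of Cdh5 0.118 (adjusted p = 0.226). Within slide 4 alone, which holds fractions 2 to 9, the slopes were 0.0722 for Cldn5, 0.124 for Cdh5, 0.0838 for Pdgfrb and 0.0647 for Abcb1a, with adjusted p between 0.296 and 0.387. Of all probes 1950 were called on that slide. Without slide 5, which leaves out fractions 10 and 11, Cldn5 was still called, as were 7382 of all probes. The outer fractions are on slides 3 and 5, and their place in the result was not tested beyond this.

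**Figure D3:**
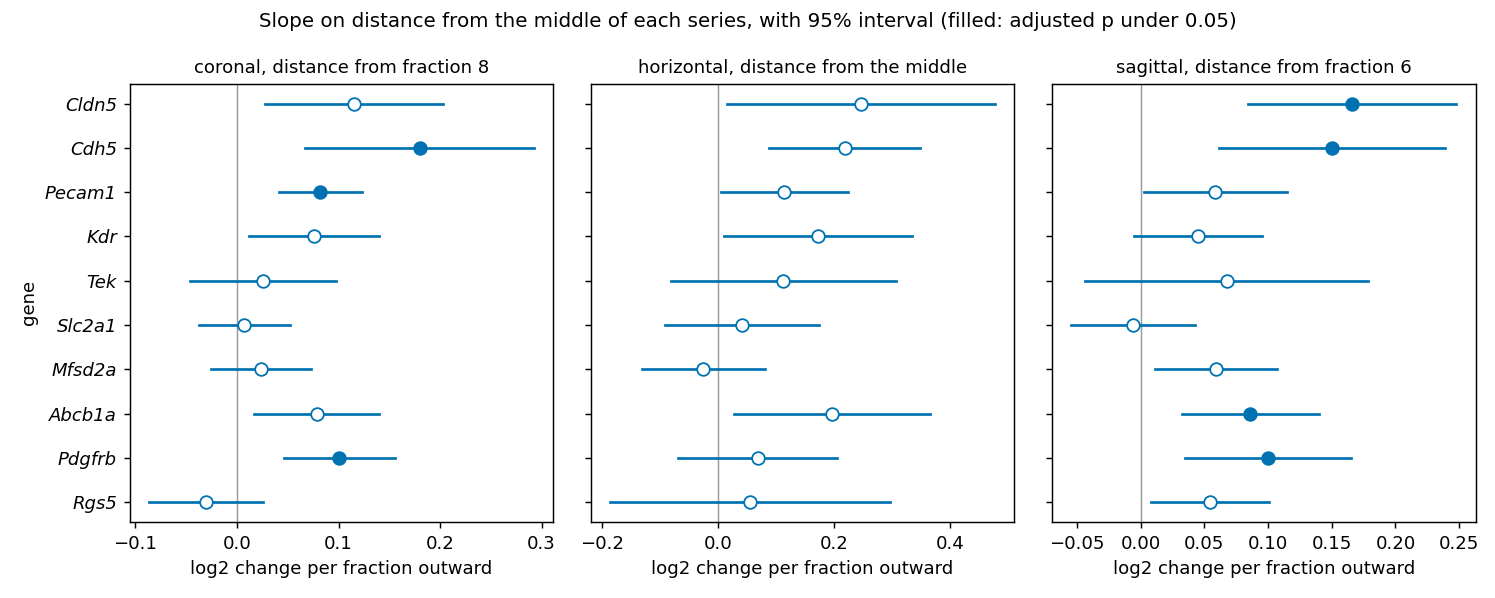
The change of log2 normalized signal per fraction outward (x axis) for each of the 10 genes (y axis), from the limma fits on distance from the middle of the coronal, horizontal and sagittal series. Points are slopes, lines are 95% intervals, and filled points have an adjusted p under 0.05. Cldn5, Cdh5, Abcb1a and Pdgfrb are filled in the sagittal panel, Cdh5, Pecam1 and Pdgfrb in the coronal panel and none in the horizontal one. The scale of the x axis differs between panels.

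Between the 2 sides of the sagittal series no gene was called, and neither was any of the 34186 probes (0%), of which 3263 had an unadjusted p under 0.05 in limma. Fractions 7 to 11 were compared with fractions 5 to 1 in 5 mirror pairs. The hindbrain and thalamic landmark genes, though not called, were higher on the side of the higher numbers (medians 3.45 and 0.762). Side and tissue therefore cannot be told apart here. Tek was 0.10 lower on the side of the higher numbers (95% interval from -0.22 to 0.02, limma adjusted p = 0.567) and Pecam1 was 0.087 lower (interval from -0.19 to 0.016, adjusted p = 0.563), each in 5 of 5 pairs. Mfsd2a was 0.10 higher on that side (interval from -0.060 to 0.26), in 4 of 5 pairs. The widest interval among the leading probes was that of Pdgfrb, from -0.27 to 0.12.

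Within each series the 10 genes gave 45 pairs. The median of Pearson's r was 0.355 over the 15 coronal fractions (from -0.652 to 0.831), 0.442 over the 8 horizontal fractions (from -0.377 to 0.915) and 0.552 over the 11 sagittal fractions (from -0.256 to 0.936). Over all pairs of tested probes the median was 0.0255, 0.0265 and 0.012. An r of at least 0.7 was reached by 6, 10 and 17 of the 45 pairs, that is 13.3%, 22.2% and 37.8%, against 4.53%, 6.45% and 5.64% of all pairs. These are descriptions, since neighbouring fractions hold adjoining tissue of 1 brain and mostly share a slide. Without the first and last fraction the median was 0.125 in the horizontal and 0.344 in the sagittal series.

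Among the 45 pairs 29 had an r above 0 in every series, and 6 had at least 0.5 in every series, Cdh5 with Abcb1a (0.703, 0.863 and 0.855 in the coronal, horizontal and sagittal series), Cldn5 with Cdh5 (0.651, 0.774 and 0.827), Cdh5 with Pecam1 (0.724, 0.618 and 0.784), Tek with Abcb1a (0.626, 0.915 and 0.571), Cdh5 with Pdgfrb (0.831, 0.555 and 0.928) and Pecam1 with Abcb1a (0.536, 0.621 and 0.752). Cdh5 was in 4 of the 6 and Abcb1a in 3. With the other Kdr probe in place of the leading one the count was 9, since Kdr then joined with Cdh5 (lowest r 0.568), Tek (0.565) and Abcb1a (0.524). The pericyte receptor Pdgfrb thus ran with the endothelial junction gene Cdh5 in every series. With the other pericyte gene Rgs5 its r was 0.024 and -0.090 in the coronal and horizontal series but 0.590 in the sagittal one. Rgs5 ran with Tek in the coronal (0.702) and horizontal (0.881) series and with Abcb1a in the sagittal one (0.936).

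The 4 lowest values of r were all in the coronal series. Mfsd2a and Rgs5 had -0.652, Kdr and Rgs5 -0.532, Tek and Mfsd2a -0.513 and Kdr and Slc2a1 -0.511. For Kdr this holds for the leading probe, since the other one had a coronal r of 0.299 with Rgs5 and 0.182 with Slc2a1. In coronal fractions 11 and 12 Mfsd2a, Cldn5 and Kdr by its leading probe (but not by the other one) were above their series medians, while Tek, Rgs5, Slc2a1, Abcb1a and Cdh5 were below theirs. Fraction 12 is the only coronal fraction on slide 5, and fraction 11, on slide 3, showed the same split. Without slide 5 the median r of the coronal series was 0.336, against 0.355 with it.

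**Figure D4:**
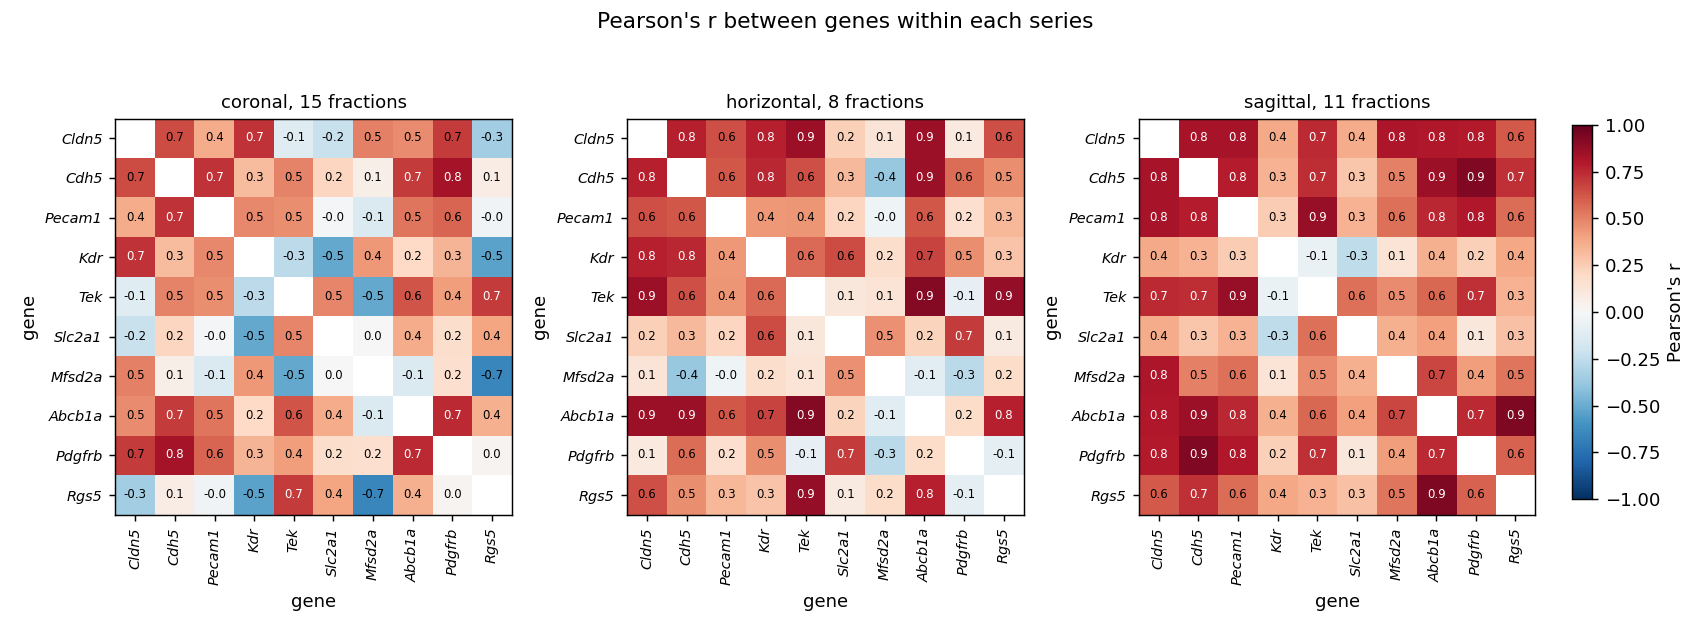
Pearson's r between the 10 genes within the coronal, horizontal and sagittal series, with genes on both axes, red for r above 0 and blue for r below 0. Cldn5, Cdh5, Pecam1, Abcb1a and Pdgfrb form red blocks in the coronal and sagittal panels, and Rgs5, Mfsd2a and Kdr by its leading probe hold the darkest blue cells of the coronal panel.

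For each of the 10 genes the genes outside the set whose lowest r over the 3 series was highest were searched among 20973 probes with a symbol. Cldn5 had the closest ones, Vwa1 (lowest r 0.956), C130074G19Rik (0.951) and Icam2 (0.942), the last of which is an adhesion molecule of endothelial cells. Cdh5 was followed by Ahnak (0.913), Ifi35 (0.892) and Hic1 (0.885), Abcb1a by Abca9 (0.927), Tfpi (0.905) and Ddr2 (0.904), and Pdgfrb by Hspg2, which encodes perlecan of the basement membrane (0.869), Iqgap1 (0.847) and Myh9 (0.836). For Pecam1 the first 3 were Glis2 (0.731), Aldh1a2 (0.725) and Lgals1 (0.718), and Aldh1a2 is on the list of meninges and fibroblast genes used below. For Tek they were Clec14a, a lectin of endothelial cells (0.747), Cmtm3 (0.688) and Txnip (0.682). Rgs5 was followed by Slc39a8 (0.801), Nampt (0.687) and Akr1c14 (0.686) and Mfsd2a by Dennd4b (0.828), Mad2l1bp (0.712) and Msl1 (0.709). Slc2a1 had the weakest, Rec114 (0.611), Cd38 (0.585) and Stard13 (0.557). Exosc2 (0.830) and Krtap19-4 (0.810) were among those of the leading Kdr probe, and the other Kdr probe was followed by Arhgef5 (0.867), She (0.827) and Col18a1 (0.809).

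Other genes of brain vessels were taken from lists and are given here for the sagittal distance, where 18.3% of all probes were called as higher outward. Among 18 other endothelial genes 9 were called higher outward and none lower, with a median slope of 0.115 per fraction. They include Icam2 (0.190, SE 0.0328, limma adjusted p = 0.00225), Ramp2, a partner of the adrenomedullin receptor (0.144, SE 0.0261, adjusted p = 0.00279), and Egfl7, a protein that endothelial cells secrete (0.165, SE 0.0352, adjusted p = 0.00621). Of 20 further genes of barrier junctions and transport 8 were called higher and 3 lower outward. The efflux pump gene Abcg2 rose (0.131, SE 0.0216, adjusted p = 0.00177), as did the organic anion transporter gene Slc22a8 (0.214, SE 0.0394, adjusted p = 0.00303), while Marveld2, which encodes tricellulin, fell by 0.275 per fraction (SE 0.0403, adjusted p = 0.00103). Marveld2 and Cgnl1 were the genes of this list not well above background in every fraction, with 20 of 34 fractions as the fewest.

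Of 15 other pericyte and mural genes 7 were called higher outward and 1 lower, with Tbx18 (0.257, SE 0.0446, limma adjusted p = 0.00227), Higd1b (0.135, SE 0.0246, adjusted p = 0.00292) and Vtn (0.175, SE 0.0398, adjusted p = 0.00846) first. The one lower was the receptor gene Notch3 (-0.0937, SE 0.0263, adjusted p = 0.0222). Among 10 genes of Wnt and Norrin signalling to the barrier, Wnt7b rose outward (0.446, SE 0.0346, adjusted p = 4.91e-05), Fzd4, the Norrin receptor, rose (0.0872, SE 0.0279, adjusted p = 0.038) and its coreceptor gene Tspan12 fell by 0.167 (SE 0.0366, adjusted p = 0.00717). Of 12 genes of angiogenic ligands and their partners 4 rose, first Efnb2 (0.230, SE 0.0355, adjusted p = 0.00133), Apln (0.0982, SE 0.0194, adjusted p = 0.00429) and Pgf (0.0991, SE 0.0288, adjusted p = 0.0257). Of 6 genes of arteries, veins and fenestrated vessels 2 rose, the venous factor Nr2f2 (0.138, SE 0.0334, adjusted p = 0.0114) and Hey1 (0.0663, SE 0.0206, adjusted p = 0.0336). Several of these genes are also made by cells that are not vascular, Wnt7b and Efnb2 by neurons among them.

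With the fraction number of the coronal series, Wnt7a rose (0.153 per fraction, SE 0.0126, limma adjusted p = 2.61e-06), Efnb2 rose (0.163, SE 0.0153, adjusted p = 7.91e-06) and Atp13a5, a pericyte gene, fell by 0.123 (SE 0.0130, adjusted p = 2.21e-05). The lists gave 2 of 18 endothelial genes called higher, Egfl7 and Ly6c1, and 3 higher and 3 lower of 15 pericyte genes, where 18.9% of all probes were called higher and 9.44% lower. With coronal distance from the middle 5 of 18 endothelial and 3 of 15 pericyte genes were called higher, where 7.99% of all probes were. So were 5 of 20 genes of barrier junctions and transport, with 1 lower, and 4 of 10 of Wnt and Norrin signalling. Of 12 angiogenic genes 0 were called higher and 1 lower. In the horizontal series, where 1.76% of all probes were called, 4 genes of the lists named so far were. Sox18 (-0.143, SE 0.0210, limma adjusted p = 0.0219) and Lef1 (-0.199, SE 0.0296, adjusted p = 0.0225) were lower with the fraction number. Nr2f2 (0.252, SE 0.0428, adjusted p = 0.0327) and Wnt7a (0.150, SE 0.0266, adjusted p = 0.0378) were higher.

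Lists of other cell types moved along the same axes. All 8 genes of the meninges and fibroblasts were well above background in every fraction, and their summed linear signal, in units of each array's 75th percentile, was 217 and 260 in coronal fractions 1 and 15 against 53.1 to 186 in the inner ones. It was 155 to 276 at the ends of the horizontal series (inner 69.4 to 148) and 110 to 132 at the ends of the sagittal series (inner 58.1 to 124). With sagittal distance 3 of the 8 were called higher, Slc6a13, Crabp2 and Aldh1a2, and none lower, and with coronal distance 6 of 8 were called higher, where 7.99% of all probes were. The r of the 10 genes with the mean of this list had a median of 0.575, 0.511 and 0.726 in the coronal, horizontal and sagittal series, and reached 0.933 for Abcb1a in the coronal series. With the mean of the 18 endothelial genes the medians were 0.587, 0.676 and 0.825. Single genes went either way. Cdh5 had a higher r with the meninges list in every series (0.810, 0.874 and 0.931) than with the endothelial list (0.783, 0.722 and 0.917). The coronal r of Abcb1a with the endothelial list was 0.621. Cldn5 had a higher r with the endothelial list in every series (0.903, 0.959 and 0.949) than with the meninges list (0.609, 0.513 and 0.736).

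Red cell genes were likewise all well above background in every fraction. The summed signal of the 6 was 157 and 158 at the coronal ends against 32.7 to 94.3 inside, and 94.2 to 130 at the sagittal ends against 29.2 to 72.5 inside. With sagittal distance 5 of 6 were called higher, and with coronal distance 6 of 6. The horizontal inner fractions reached 243 and the ends were at 85.5 and 201. The r of Cldn5 with the mean of the red cell genes was 0.847, 0.140 and 0.955 in the coronal, horizontal and sagittal series.

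The 7 genes of microglia and macrophages, all well above background in every fraction, had a summed signal of 40.9 to 51.3 at the coronal ends (inner 28.8 to 46.2) and of 45.5 to 47.8 at the sagittal ends (inner 28.1 to 38.4), with 2 of 7 called higher with sagittal distance. Of the 6 neuronal genes 4 were called higher with sagittal distance. Of the 7 astrocyte genes 1 was called lower, of the 6 oligodendrocyte genes 4 lower, where 9.97% of all probes were called lower outward, and of the 6 choroid plexus genes, all but Kl well above background in every fraction, none either way. The 5 smooth muscle genes had 2 called higher and the 3 skeletal muscle genes none. What part the meninges, blood and the other cell types have in the values of the 10 genes was not tested.

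**Figure D5:**
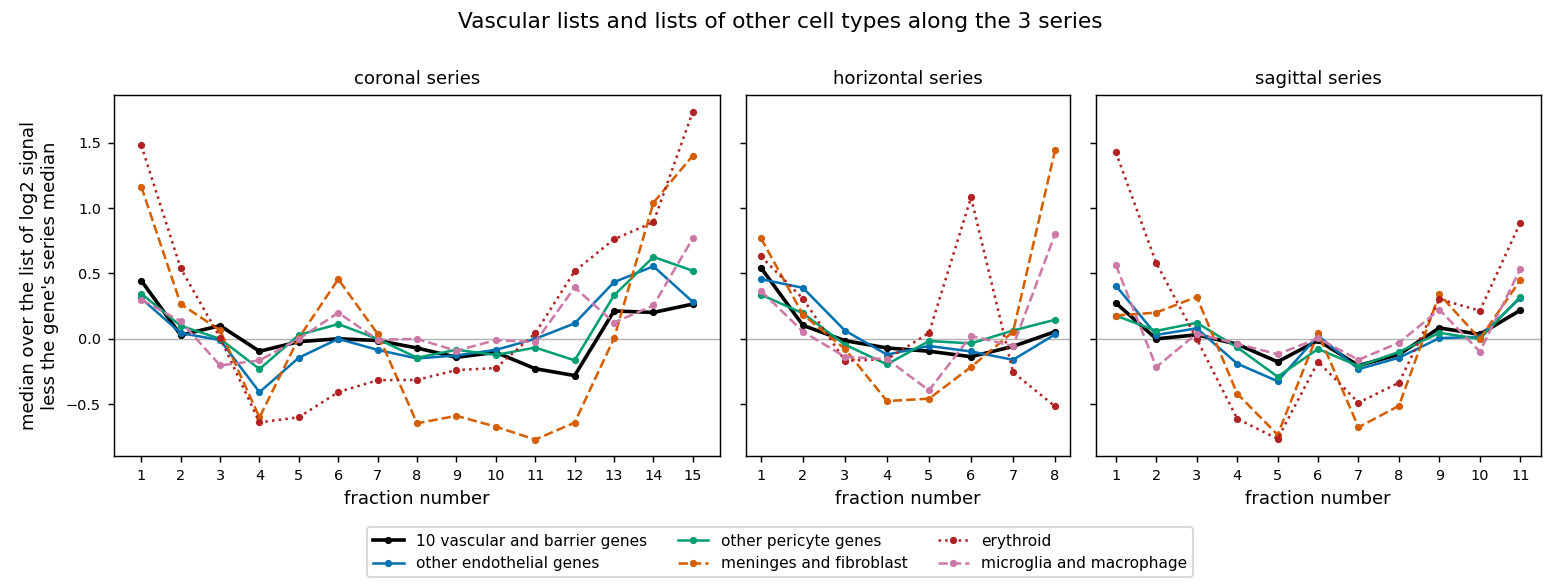
The median over a list of each gene's log2 normalized signal less its own median in the series (y axis) against fraction number (x axis), for the 10 genes, 18 other endothelial genes, 15 other pericyte genes, 8 genes of meninges and fibroblasts, 6 red cell genes and 7 genes of microglia and macrophages. The vascular lists are high at the ends of the coronal and sagittal series, where the red cell genes are higher still, and so are those of the meninges at the coronal ends.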

How the data were processed

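The data are 34 single-colour arrays of 3 brains. The authors scanned them with Agilent Feature Extraction 10.10.1.1 and deposited the intensity of every spot, background-subtracted but not scaled between arrays, with detection flags in other columns. They also deposited log2 values of 43199 probes, 99.9% of which differed by at most 0.02 from the spot files' log2 signal once a constant was taken off each array. Here control spots and spots flagged as outliers were left out, unless all spots of a probe were flagged, and the others of 1 probe were averaged and divided by the 75th percentile of the array before taking log2. The array design is on mm9, and gene symbols came from RefSeq accessions through a table of GRCm38.p6, which matched 26582 probes.

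Probes detected (most spots well above background) somewhere in every series, 34186 in all, were tested with limma 3.58.1 in R 4.3.3 (lmFit, eBayes, Benjamini-Hochberg adjusted p under 0.05), on fraction number (coronal, horizontal), on distance from sagittal fraction 6, and between the sagittal sides with the mirror pair as a term. The fits were tested on simulated data whose noise was independent between fractions, which does not cover the likeness of neighbouring real fractions. Correlations and plots used Python 3.11.15, numpy 2.4.6 and matplotlib 3.10.9. Tests compare positions within 1 mouse, whose neighbouring fractions are alike, so their p-values say nothing of other mice. The number of arrays limits the precision.

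The genes and lists were chosen with earlier results of these data known. Named are all 10 genes, for each the 3 genes with the highest lowest r, up to 3 genes of a list per test, Abcb1b and the landmark genes, except that a few of these genes are not reported here. Genes of the coronal distance test, and others singled out, were named after their values were seen. Alternatives are given in the closing section.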

Additional observations from a re-analysis of the deposited data

Results flagged for a closer look

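Among 22 groups of values, the 8 horizontal fractions and the 5 sagittal mirror pairs of each of the 11 probes, 2 held a value far from the others, where chance gives about 1 in 20. Mfsd2a was at 2.27 (log2) in the last of the horizontal fractions, number 8, and the next lowest horizontal fraction was at 2.48. Fraction 8 was also the horizontal fraction with the highest list median of the meninges genes. For Pecam1 the difference between sagittal fractions 11 and 1 was -0.05, where the other 4 mirror pairs lay at -0.09 or below. That gap is small against the SD of 0.16 of Pecam1 over the sagittal fractions.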

How the results depend on the processing

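No paired analysis was possible because the fraction numbers that the series share mark positions on different axes in different mice, and the mirror pairs in the comparison of the sagittal sides pair positions within 1 brain and not samples by number. The counts of the 10 genes called moved as follows. Along the coronal axis the count of 1 became 0 with quantile normalization or with slide as a block, 6 with the natural spline, and, in alternatives chosen after seeing the data, 3 with distance from the middle (3 without fraction 5, 6 with slide as a block, 0 without the first and last fraction) and 2 on slide 3 alone. On slide 2 alone the coronal slope of Cldn5 was -0.0309 and Pecam1 was called. Of all probes 9677 were called along the coronal axis, 8047 with quantile normalization, 251 with slide as a block and 20642 with the natural spline. With distance from the middle it was 6184, and then 5614 without fraction 5, 8959 with slide as a block and 2360 without the end fractions. Slide 2 alone gave 6503 probes and slide 3 alone 2099. With distance from the middle sagittal fraction the count of 4 became 8 with the array's median, 7 with normexp, 2 with no filter on dim probes, 1 with the spline or without slide 5, and 0 without the first and last fraction, with slide as a block or on slide 4 alone. The count over all probes there, 9666, became 12385 with the array's median, 15145 with normexp and 6857 of 55681 with no filter. It was 5381 with the spline, 7382 without slide 5, 3434 without the first and last fraction, 2142 with slide as a block and 1950 on slide 4 alone. No alternative called a gene along the horizontal series or between the sides. The horizontal median r of 0.442 became 0.333 with Spearman's rho and 0.125 without the end fractions. The sagittal median r of 0.552 became 0.716 with the array's median, 0.445 with quantile normalization, 0.713 with the mean of both Kdr probes, 0.729 with the other Kdr probe, 0.344 without the end fractions and 0.407 less the slide means. The cause of these moves was not tested, beyond the fewer fractions or the larger number of probes tested that some settings have by construction. The coronal median r stayed between 0.282 and 0.409. Each fraction was measured once, so no value has a replicate error.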
